A study of Mus musculus with 7 samples.

Results

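The guanylate-binding proteins (GBPs) are large interferon-inducible GTPases, taken here as the 8 genes with the symbols Gbp2, Gbp3, Gbp4, Gbp5, Gbp6, Gbp7, Gbp8 and Gbp9 among the 17920 genes of the deposited expression table. They were chosen by symbol. All 8 had a mean level of at least 1 FPKM (a fragment count divided by transcript length and scaled to the library's mapped fragments) and were among the 11378 genes tested. RNA-seq had been made from the spleens of C57BL/6 mice of 8 weeks, all of them injected intraperitoneally with lipopolysaccharide (LPS, a bacterial cell wall component) at 20 mg/kg. The study asked how loss of GdX, the ubiquitin-like protein UBL4A, alters expression under LPS. There were 2 wild-type and 2 GdX-deficient (knockout) libraries 90 min after LPS, and 2 wild-type libraries and 1 knockout library 6 h after it. The genotype is written GdX-/- in one label and GdX-/Y in another. The source is named splenocytes, but the protocol describes RNA taken from the crushed organ, so the libraries are treated as whole spleen. Every group had received LPS, and no uninjected spleen was analysed here, so no level before LPS can be given. No label says whether a library is 1 animal or a pool, and p-values therefore measure the spread between these libraries, which may be technical.

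GBPs assemble on vacuoles that hold intracellular pathogens and on cytosolic Gram-negative bacteria, and they promote the sensing of LPS by caspase-11, encoded by Casp4. Their genes are classical targets of interferon gamma, which acts through JAK1 and JAK2 and, at the promoter, on elements called GAS. Type I interferons act on the ISRE, an element that is bound by IRF9-containing complexes and by IRF1.

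The family lies in 2 clusters. Gbp5, Gbp7, Gbp3 and Gbp2 lie in that order on the forward strand of chromosome 3, within 141.1 kb (chr3:142496934-142638008, RefSeq on GRCm38.p6). Gbp8, Gbp9, Gbp4 and Gbp6 lie on the reverse strand of chromosome 5, within 283.4 kb (chr5:105012513-105295871). Promoter sequences from RefSeq (GRCm38.p6) were matched for the 4 chromosome 3 members and for their neighbour Gbp2b. They were searched on both strands, over the 250 bases before each start site, for an ISRE core (a pair of GAAA with any 2 bases between), a GAS core (TTCNNNGAA) and a kappa B core (GGG and CC with any 5 bases between). An ISRE core was found in all 5 windows, against 2.98% of 32851 RefSeq promoter windows of the same length. A further RefSeq start of Gbp3 had none in its window. For each gene the 30 bases around it are given here, 5′ to 3′ on the forward strand, because this element is what the 5 promoters share. Capitals mark the core, which reads as its reverse complement on this strand, and in Gbp3 they mark a pair of overlapping cores.

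Gbp2: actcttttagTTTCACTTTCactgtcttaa
Gbp2b: gtacttctaaTTTCACTTTCttctttatca
Gbp3: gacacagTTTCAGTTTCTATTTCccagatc
Gbp5: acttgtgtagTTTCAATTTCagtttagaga
Gbp7: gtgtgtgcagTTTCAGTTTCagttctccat

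The windows lie at chr3:142620594-142620623 for Gbp2, chr3:142594700-142594729 for Gbp2b, chr3:142559992-142560021 for Gbp3, chr3:142496759-142496788 for Gbp5 and chr3:142530273-142530302 for Gbp7. All lie upstream of the RefSeq start site used for that gene. In the GENCODE M21 annotation of the same build, the Gbp2 window falls partly in an exon of a longer transcript, which starts at position 142620602, and the Gbp5 window in an intron. A GAS core was found only in the windows of Gbp5 and Gbp7, in 2 copies each, and in 7.02% of all windows. An ISRE and a GAS core occurred together in 0.33% of all windows. The Gbp7 elements lie close together and are shown as 1 stretch, chr3:142530210-142530312, with both GAS cores and then the ISRE core in capitals.

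Gbp7: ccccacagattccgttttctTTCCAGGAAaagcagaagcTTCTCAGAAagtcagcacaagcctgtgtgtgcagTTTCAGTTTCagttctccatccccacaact

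A kappa B core was present before Gbp5 and Gbp2b, and in 45.8% of all windows, so its presence sets these promoters little apart. A match is a description of the sequence, and binding was not measured. The promoters of Gbp4, Gbp6, Gbp8 and Gbp9 were not analysed here.

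**Figure D1:**
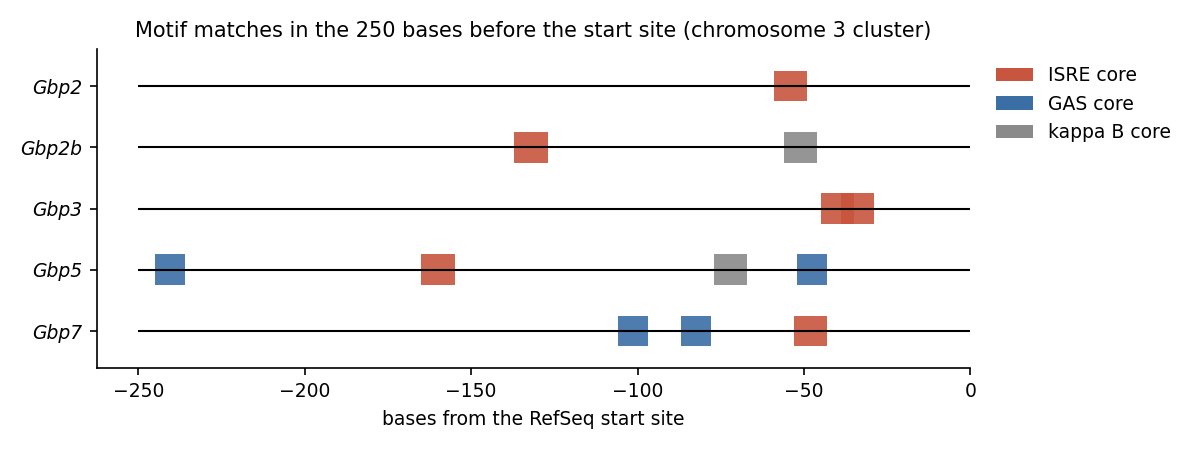
Matches to the ISRE, GAS and kappa B cores in the 250 bases before the RefSeq start sites of Gbp2, Gbp2b, Gbp3, Gbp5 and Gbp7; the horizontal axis is the distance from the start site in bases and each block is 1 match on either strand. All 5 genes have an ISRE core, and Gbp5 and Gbp7 each have 2 GAS cores as well.

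The targeted gene was examined first. Ubl4a stood at 5.62 and 7.50 FPKM in wild type and 4.03 and 5.69 in GdX-deficient spleen at 90 min, and at 11.9 and 14.0 in wild type and 10.6 in the 6 h knockout library. Its own level therefore did not separate the genotypes at 90 min (log2 difference -0.37, SE 0.31, limma adjusted p = 0.661). Nor did it with time as a covariate (-0.33, limma adjusted p = 0.37), and its difference at 6 h was -0.27. The overlapping entry Gm44504 did not pass at 90 min either (-2.73, limma adjusted p = 0.138), but was lower in the knockout at 6 h (-4.44, limma adjusted p = 0.0053) and with time as a covariate (-3.42, limma adjusted p = 0.0072). It lay between 0.66 and 1.86 FPKM in the 3 knockouts and between 14.5 and 51.1 FPKM in the 4 wild-type ones. The genotypes also differed at a locus other than the targeted one, since Hbb-b1, a beta-globin gene, lay between 16577 and 44998 FPKM in GdX-deficient libraries and between 6.70 and 13.8 FPKM in wild type. Whether the genotypes share alleles at the Gbp clusters was not tested. Globin genes took between 7.73% and 30.89% of a library's FPKM sum. Depth was estimated from the steps between low FPKM values at 19000000 to 21200000 fragments per library, with 57.7% to 67.2% of the low genes used falling on whole fragments. Marker genes of B cells, T cells, NK cells, neutrophils, macrophages, dendritic cells, endothelium, stroma and red cells were all present, as in a spleen. In bulk RNA, fewer cells of a type and less RNA per cell cannot be told apart.

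Gbp2 and Gbp5 had the highest levels in wild type. Over the 7 libraries Gbp2 ranged from 74.9 to 345 FPKM and Gbp5 from 100.4 to 204 FPKM. Gbp4 (49.5 to 137 FPKM), Gbp9 (40.9 to 92.6), Gbp3 (43.6 to 91.2), Gbp7 (38.0 to 75.9) and Gbp6 (31.1 to 76.5) overlapped each other in range. Gbp8 was the lowest, from 11.2 to 31.9 FPKM. In each of the 4 libraries at 90 min Gbp5 was the highest member, and in each of the 3 libraries at 6 h Gbp2 was. In both knockout libraries at 90 min Gbp4 (137 and 101 FPKM) lay above Gbp2 (123 and 84.8 FPKM), and in the 6 h knockout library Gbp4 (102 FPKM) was level with Gbp5 (100.4 FPKM).

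**Figure D2:**
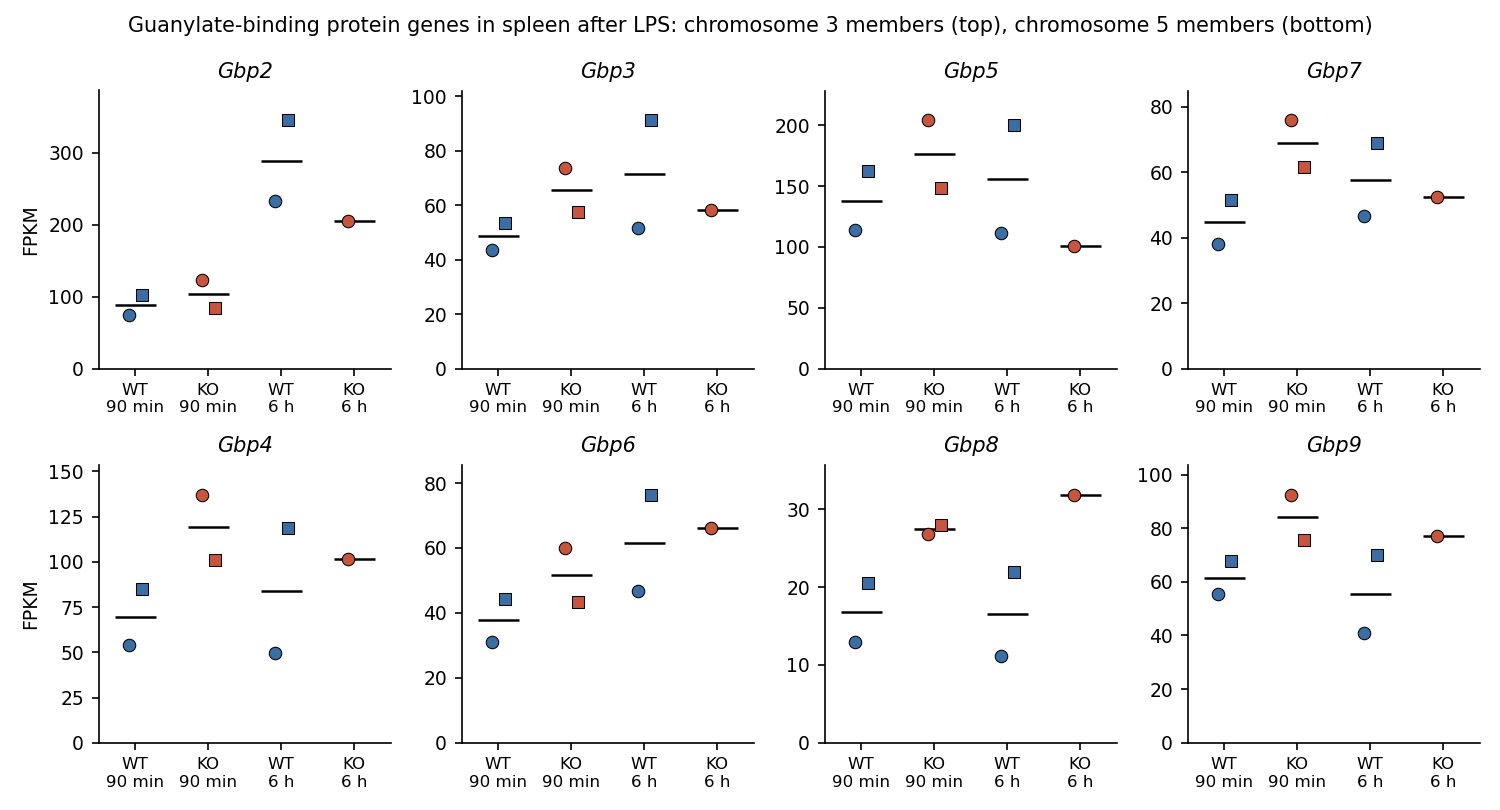
FPKM of the 8 members in each library, with chromosome 3 members in the upper row and chromosome 5 members in the lower row; circles are replicate 1, squares replicate 2, bars the group mean, and WT and KO stand for wild type and GdX-deficient. Gbp2 is the member whose 3 libraries at 6 h, between 205 and 345 FPKM, are widely separated from its 4 libraries at 90 min, between 74.9 and 123 FPKM.

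Time after LPS was compared within wild type. Gbp2, a vacuole-coating GBP, was the member that rose. It stood at 74.9 and 102 FPKM at 90 min, against 233 and 345 at 6 h. The groups did not overlap, and the difference was 1.69 on the log2(FPKM + 1) scale (SE 0.31, 95% interval 0.99 to 2.38, limma adjusted p = 0.0122), a 3.22-fold higher level. With no filter on low values the limma adjusted p was 0.0574. Of the 8 members, 1 passed the threshold of 0.05, where 10.7% of all tested genes did, so the count is close to the background. The other 7 had log2 differences between -0.19 and 0.67 and adjusted p-values between 0.205 and 0.939 in limma.

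Gbp6 came next to Gbp2, with 31.1 and 44.4 FPKM at 90 min, against 46.7 and 76.5 at 6 h in wild type. These groups do not overlap, which made 2 of 8 members higher without overlap (30.3% of all tested genes), but the difference of 0.67 (SE 0.32, 95% interval -0.06 to 1.40, limma adjusted p = 0.205) did not pass. Without the first wild-type library at 6 h it was 1.02 with a limma adjusted p of 0.0484, and 2 members passed, while without the second it was 0.32 with a limma adjusted p of 0.573. Gbp5, which supports inflammasome activation, had 113 and 162 FPKM at 90 min, against 111 and 201 at 6 h. Its libraries overlapped fully, and its difference of 0.14 had a 95% interval from -0.62 to 0.90. Gbp9 had the lowest difference, -0.19 (95% interval -0.87 to 0.50), with 55.3 and 67.6 FPKM at 90 min, against 40.9 and 70.0 at 6 h.

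In GdX-deficient spleen, time was compared between 2 libraries and 1, and the single library was assumed to vary like the other groups. Gbp2 stood at 123 and 84.8 FPKM at 90 min and 205 FPKM at 6 h, without overlap. The difference was 1.00 (SE 0.38, 95% interval 0.15 to 1.85, limma adjusted p = 0.507, unadjusted p = 0.0263). No member passed in limma, and 0.0% of all tested genes did. Of the 8, 1 had an unadjusted p under 0.05, against 8.0% of all tested genes. Gbp5 was at 204 and 149 FPKM at 90 min and at 100.4 FPKM at 6 h. With Gbp7 it made 2 of 8 members whose 6 h library lay below both earlier ones (15.8% of all tested genes), while Gbp2, Gbp6 and Gbp8 made 3 of 8 whose 6 h library lay above both (56.8%). The difference for Gbp5 was -0.79 (95% interval -1.73 to 0.15, limma adjusted p = 0.727). The difference in the time course between genotypes was tested as an interaction. For Gbp2 it was -0.69 (95% interval -1.79 to 0.41, limma adjusted p = 0.737), and from -0.97 without the first wild-type library at 6 h to -0.40 without the second, so the smaller value in GdX-deficient spleen was not separated from that in wild type, which does not show that the time courses are alike. No member passed in limma for the interaction, where 0.0703% of all tested genes did, and none had an unadjusted p under 0.05, against 9.98%.

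Genotype was compared at 90 min, with 2 libraries on each side. Every member had a higher mean in GdX-deficient than in wild-type spleen, with log2 differences from 0.22 for Gbp2 to 0.78 for Gbp4, and all 8 stayed above 0 under each scaling tried, beside 56.5% of all tested genes above 0. The median was 0.45, beside 0.07 over all tested genes. None of the 8 passed (limma adjusted p from 0.621 to 0.782), where 0.0176% of all tested genes did, and 0 had an unadjusted p under 0.05, against 7.58%. In 5 of the 8 both knockout libraries lay above both wild-type ones, which 24.1% of all tested genes also showed. Gbp2 turned to -0.04 without the first GdX-deficient library at 90 min.

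Gbp4 had the largest difference at this time when all libraries were used. It stood at 54.2 and 85.1 FPKM in wild type and 137 and 101 FPKM in GdX-deficient spleen, and its difference of 0.78 had an SE of 0.41 and a 95% interval from -0.14 to 1.70. It was 0.46 without the first wild-type library at 90 min and 0.56 without the first knockout one, where Gbp8 (0.74) lay above it. Gbp8 stood at 13.0 and 20.6 FPKM in wild type and 26.9 and 28.0 FPKM in GdX-deficient spleen. The groups are apart, and the difference was 0.71 (SE 0.36, 95% interval -0.09 to 1.52), or 0.40 without the first wild-type library. Without that library the 8 members ran from 0.0052 to 0.46. Gbp7, which takes part in the antibacterial defence of mouse macrophages, was at 38.0 and 51.4 FPKM in wild type and 75.9 and 61.7 FPKM in GdX-deficient spleen. Its difference was 0.62 (SE 0.29, 95% interval -0.03 to 1.27). Gbp9 (55.3 and 67.6 against 92.6 and 75.6 FPKM) and Gbp3 (43.6 and 53.5 against 73.5 and 57.4 FPKM) were the other members without overlap. For Gbp2, Gbp5 and Gbp6 the second GdX-deficient library lay inside the wild-type range.

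At 6 h the 8 members did not share a direction. The single GdX-deficient library gave log2 differences from wild type between -0.57 and 0.98, 4 above 0 (66.2% of all tested genes) and 4 below, with a median of 0.01 beside 0.32 over all tested genes. No member passed in limma, where 3.96% of all tested genes did, and none had an unadjusted p under 0.05, against 28.4%. Gbp8 was at 31.9 FPKM in the GdX-deficient library and at 11.2 and 22.0 FPKM in wild type, a difference of 0.98 (SE 0.44, 95% interval -0.01 to 1.97, limma adjusted p = 0.179). Without the second wild-type library at 6 h it was 1.44 with a limma adjusted p of 0.0147, and without the first it was 0.52 with a limma adjusted p of 0.522. Gbp9 was the other member above both wild-type libraries, at 76.9 FPKM against 40.9 and 70.0 FPKM (0.52, 95% interval -0.32 to 1.35). Its difference was 0.14 without the first wild-type library at 6 h, 0.90 without the second, and 0.0291 with the trend on transcript length removed.

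The members below both wild-type libraries at 6 h were Gbp2 and Gbp5. Gbp2 stood at 205 FPKM against 233 and 345 FPKM (-0.46, 95% interval -1.31 to 0.39, limma adjusted p = 0.433), and the difference was -0.75 without the first wild-type library at 6 h and -0.18 without the second. Gbp5 stood at 100.4 FPKM against 111 and 201 FPKM (-0.57, 95% interval -1.51 to 0.37, limma adjusted p = 0.384), with -0.99 and -0.15 when the same libraries were left out. Higher and lower separations of this kind were seen in 54.9% and 25.3% of all tested genes, beside 2 of 8 members each way. Gbp3, Gbp4, Gbp6 and Gbp7 lay inside the wild-type range. Their differences were -0.23, 0.40, 0.14 and -0.11, and each changed sign under 1 or more of the scalings or left-out libraries tried.

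Over both times, with time as a covariate (3 GdX-deficient against 4 wild-type libraries), no member passed in limma, where 0.0439% of all tested genes did. Gbp8 was the 1 member with an unadjusted p under 0.05, as 27.0% of all tested genes had. Its difference was 0.82 (SE 0.27, 95% interval 0.22 to 1.42, limma adjusted p = 0.116), and its 3 GdX-deficient libraries, at 26.9, 28.0 and 31.9 FPKM, all lay above its 4 wild-type libraries, at 11.2 to 22.0 FPKM. Gbp8 and Gbp9 were higher without overlap at both times, as were 19.0% of all tested genes. Gbp4 (0.63, 95% interval -0.05 to 1.31) and Gbp9 (0.47, 95% interval -0.04 to 0.99) followed, and Gbp6 (0.32) and Gbp7 (0.33) were smaller. With each library left out in turn Gbp4 ran from 0.43 to 0.86, Gbp6 from 0.17 to 0.46 and Gbp7 from 0.15 to 0.62. Each was lowest without the first wild-type library at 90 min. Over all the alternatives tried, Gbp9 ran from 0.15 to 0.71. Gbp2 (-0.05, 95% interval -0.62 to 0.52) and Gbp5 (-0.01, 95% interval -0.66 to 0.63) lay near 0. Both were above 0 at 90 min and below 0 at 6 h, so a single difference over both times describes them poorly. Their sign turned under quantile normalization and with globin genes left out.

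**Figure D3:**
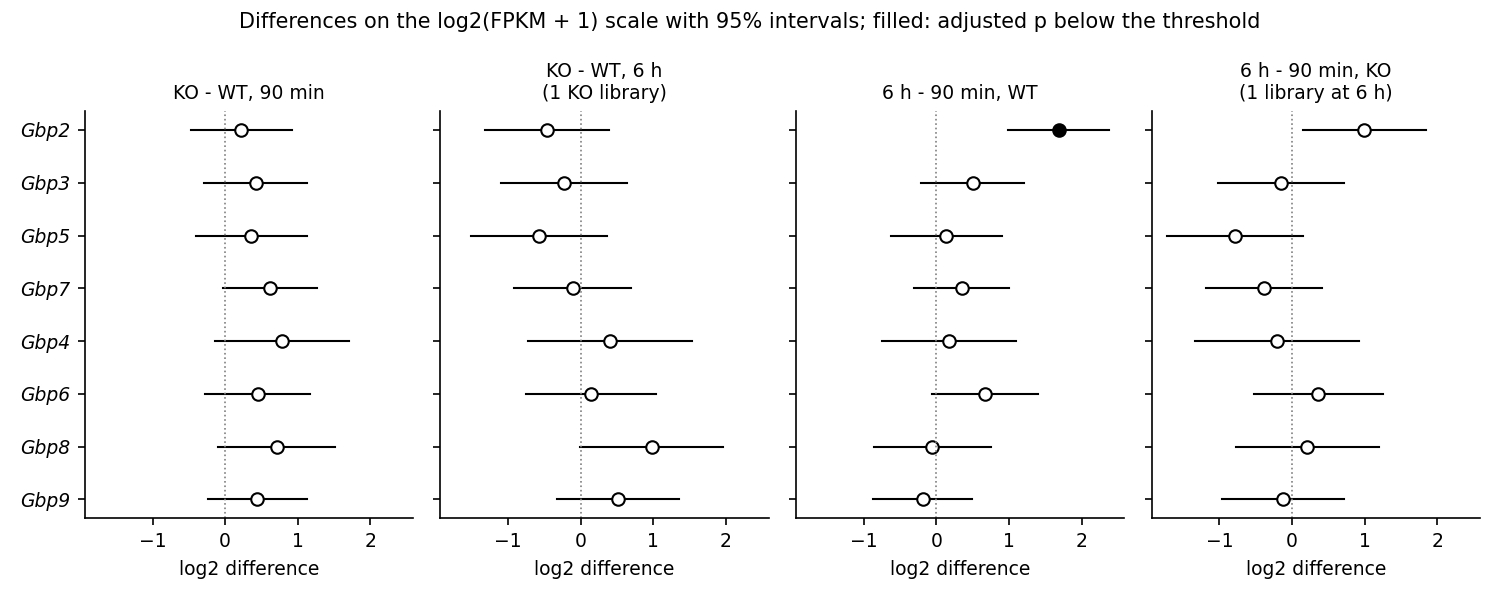
Log2(FPKM + 1) differences of the 8 members with 95% intervals in 4 comparisons, GdX-deficient (KO) minus wild type (WT) at each time and 6 h minus 90 min in each genotype; a filled point marks a limma adjusted p below 0.05. The single filled point is Gbp2 in wild type, at 1.69, and the intervals of all 8 members include 0 in both genotype comparisons.

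The make-up of the family within a library does not depend on how that library was scaled as a whole. These shares were chosen after the values had been seen. Gbp2 took 17.68%, 17.38%, 15.55% and 14.13% of the summed FPKM of the 8 members in the 4 libraries at 90 min. At 6 h it took 39.39% and 34.76% in wild type and 29.63% in the GdX-deficient library. With both genotypes pooled, the mean was 34.6% ± 4.88 (SD, n = 3) at 6 h and 16.2% ± 1.66 (SD, n = 4) at 90 min. No library of one time reached the range of the other. No test is given for this share or those that follow, which were chosen with their values known. Gbp5 took 24.76% to 27.63% at 90 min, 18.87% and 20.21% in wild type at 6 h, and 14.49% in the 6 h knockout library.

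The 4 chromosome 5 members, Gbp4, Gbp6, Gbp8 and Gbp9, together took 36.26% and 37.11% in wild type at 90 min and 39.90% and 41.28% in GdX-deficient spleen at 90 min. At 6 h they took 25.10% and 28.91% in wild type and 39.90% in the GdX-deficient library. Their share was thus higher in all 3 GdX-deficient libraries than in any of the 4 wild-type ones. With both times pooled it was 40.4% ± 0.795 (SD, n = 3) against 31.8% ± 5.81 (SD, n = 4). These SDs include the difference between times and are not a spread between replicates. With Gbp2 left out of the sum the order held, at 47.24%, 48.07% and 56.70% against 41.42% to 44.91%.

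**Figure D4:**
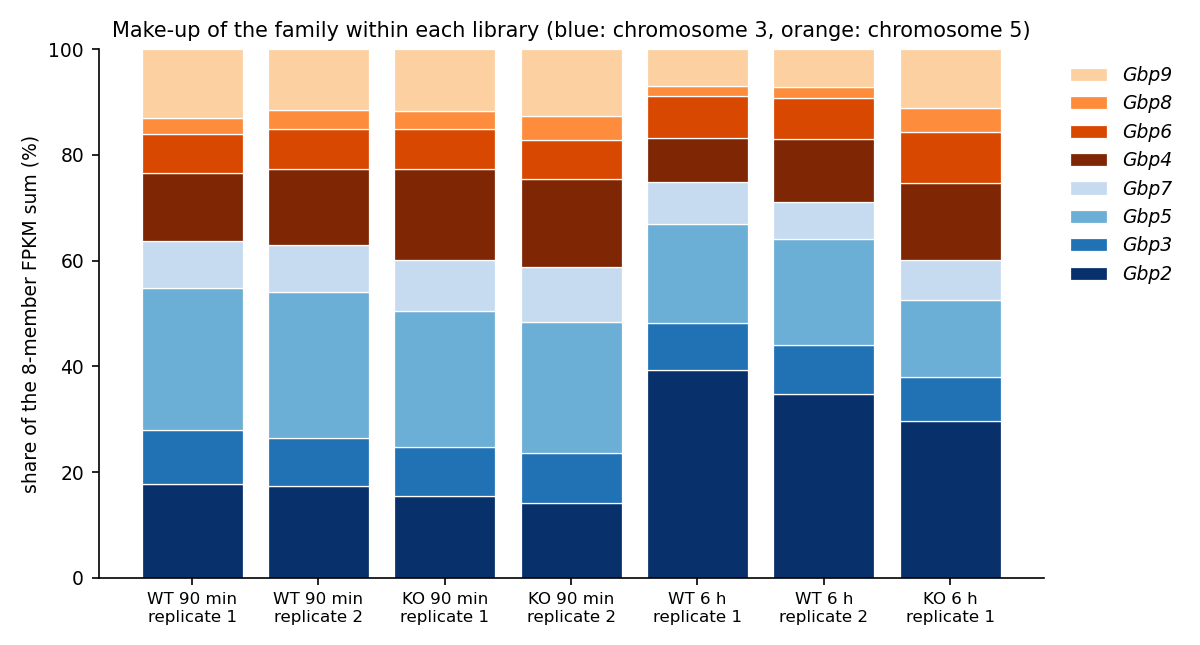
Share of each member in the summed FPKM of the 8 members, in percent, for each of the 7 libraries; blue parts are chromosome 3 members and orange parts chromosome 5 members. The Gbp2 part takes 29.63% to 39.39% at 6 h and 14.13% to 17.68% at 90 min.

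Replicates differed in 1 direction over nearly the whole family. In wild type, replicate 2 was higher than replicate 1 in 8 of 8 members at 90 min (61.9% of all tested genes) and in 8 of 8 at 6 h (68.3%). At 6 h, 6 of the 8 were at least 1.5-fold higher in replicate 2, against 25.2% of all tested genes, and the median log2 gap was 0.78. Gbp4 showed it most, with 49.5 and 119 FPKM. In GdX-deficient spleen at 90 min the order was the opposite one, with replicate 2 higher in 1 of 8 members (69.2% of all tested genes) and a median gap of -0.40. Differences between replicates also went with transcript length over all genes: Spearman's rho of the replicate gap with length was 0.589 in wild type at 6 h, 0.445 in wild type at 90 min and 0.164 in the knockout at 90 min, over 11180 genes, which are not independent replicates. With the trend on length removed, the median gap of the members was 0.46 in wild type at 6 h, 0.35 in wild type at 90 min and -0.65 in GdX-deficient spleen. The median transcript length of the members, 2868 bases, was close to that of all tested genes, 2782 bases. Single members ran from 2459 to 5614 bases, so a trend on length can shift them by different amounts. The shares within a library were not corrected for it.

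Closely similar copies limit some of these values. Gbp6 is 98.4% identical in coding sequence to its chromosome 5 neighbour Gbp10, and 66.5% of the 50-base windows of its transcript occur in another family transcript. The division of fragments between them is uncertain. Gbp10 stood at 2.34 and 5.73 FPKM in wild type and 10.9 and 7.24 in GdX-deficient spleen at 90 min, and at 4.46 and 18.1 in wild type and 17.1 in the 6 h knockout library. The sum of Gbp6 and Gbp10 was 33.4, 50.1, 70.8, 50.7, 51.2, 94.6 and 83.1 FPKM in the same order, and its log2 differences, 0.54 between genotypes at 90 min and 0.75 between times in wild type, lay beside 0.45 and 0.67 for Gbp6 alone. Between genotypes at 6 h the sum gave 0.25 and Gbp6 alone 0.14, and between times in GdX-deficient spleen 0.47 and 0.36. The coding sequences of Gbp4, Gbp6, Gbp8 and Gbp9 are 90.2% to 92.9% identical to each other. Gbp8 shares 19.2% of its windows with other family members and Gbp9 6.8%, with Gbp4 between them. Gbp2 (2.1%), Gbp7 (2.3%), Gbp3 (4.8%) and Gbp5 (0.0%) share few. Windows were compared only among the transcripts of the 8 members, Gbp10 and Gbp2b, and the pseudogene Gbp2-ps, which lies beside Gbp2, was not compared. At the estimated depth Gbp2 was covered by about 3730 to 17710 fragments per library and Gbp5 by about 6050 to 12520, and counting error is small beside the spread between replicates.

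The interferon pathway around the family was followed in 42 genes of 5 lists, all of them listed and tested. For time in wild type 1 of the 42 rose and 4 fell in limma, where 10.7% of all tested genes passed in either direction. Ifng, the interferon gamma gene, stood at 9.53 and 10.1 FPKM in wild type and 18.7 and 7.86 in GdX-deficient spleen at 90 min, and at 35.8 and 42.3 in wild type and 1.99 in the 6 h knockout library. It rose with time in wild type by 1.89 (SE 0.38, limma adjusted p = 0.0167). At 6 h it was lower in the GdX-deficient library, by a difference of -3.74 (SE 0.46, 95% interval -4.78 to -2.70, limma adjusted p = 0.0082), which rests on that 1 library. With no filter on low values the limma adjusted p-values of these 2 differences were 0.072 and 0.0548. Its difference between times in GdX-deficient spleen was -2.14 (limma adjusted p = 0.147), and the interaction was -4.03 (limma adjusted p = 0.0626). Both passed when any 1 wild-type library was left out, with limma adjusted p-values of 0.00401 to 0.0442 and of 0.000229 to 0.0137, although the time difference itself stayed at -2.14. Without the first knockout library at 90 min they were -1.57 and -3.45 (limma adjusted p = 0.363 and 0.221), and without the second -2.72 and -4.61 (0.0774 and 0.136). In that same GdX-deficient library Gbp2 was at 205 FPKM, above all 4 libraries at 90 min and below both wild-type libraries at 6 h (233 and 345 FPKM). A link between Ifng and Gbp2 was not tested.

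Among the 6 ligand and receptor genes, 1 rose with time in wild type (Ifng) and 1 fell: Ifnb1, the interferon beta gene, went from 12.1 and 5.68 FPKM to 0.39 and 0.20 FPKM (-2.86, limma adjusted p = 0.0223, and 0.116 with no filter on low values). None of the 6 passed for genotype at 90 min, where 1 had an unadjusted p under 0.05 (7.58% of all tested genes), and Ifng was the only one to pass at 6 h (3.96%). None of the 9 kinase and transcription factor genes passed in limma in any of the 6 comparisons, and 4 of them had an unadjusted p under 0.05 with time as a covariate, where 27.0% of all tested genes did. The 4 were the kinase genes Tyk2 (1.06, SE 0.33, limma adjusted p = 0.109) and Jak1 (0.82, SE 0.32, 0.142) and the factor genes Irf2 (0.85, SE 0.28, 0.115) and Stat2 (0.94, SE 0.34, 0.125), each higher in the knockout at both times without overlap, as were 19.0% of all tested genes. Without the 6 h knockout library the Jak1 difference was 0.54. Tyk2, the largest of the 4, stood at 9.16 and 14.0 FPKM in wild type and 16.2 and 21.9 in the knockout at 90 min, and at 4.52 and 10.6 against 23.7 at 6 h. Without the first knockout library at 90 min its difference was 1.26 with a limma adjusted p of 0.0485, and without the 6 h knockout library it was 0.69 with a limma adjusted p of 0.624. Irf9 was higher in the knockout at both times without overlap, with 94.5 and 121 FPKM in wild type against 124 and 150 in the knockout at 90 min and 62.3 and 91.3 against 104 at 6 h (0.40 with time as a covariate, SE 0.22, limma adjusted p = 0.257). Irf1 went the other way, with 438 and 466 against 423 and 332 FPKM at 90 min and 320 and 366 against 225 FPKM at 6 h (-0.40 with time as a covariate, SE 0.21, limma adjusted p = 0.233).

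Of the 5 inhibitor genes, Socs3, which curbs JAK signalling, fell with time in wild type, from 269 and 422 FPKM to 71.7 and 135 FPKM (-1.76, limma adjusted p = 0.0387). The limma adjusted p was 0.0708 without the second wild-type library at 90 min, 0.138 with no filter on low values, 0.0548 with globin genes left out and 0.059 with median-ratio scaling. Ptpn2, a phosphatase that acts on JAK1, was lower in the knockout at both times without overlap. At 6 h alone, 25.3% of all tested genes lay below both wild-type libraries. Ptpn2 had 75.9 and 60.0 FPKM in wild type against 46.1 and 36.4 at 90 min, and 83.3 and 60.6 against 29.8 at 6 h (-0.91 with time as a covariate, SE 0.23, limma adjusted p = 0.101). Without the first knockout library at 90 min its difference was -1.05 with a limma adjusted p of 0.0283, and without the 6 h knockout library it was -0.71 with a limma adjusted p of 0.621. Socs1 was at 75.5 FPKM in the 6 h knockout library against 201 and 194 FPKM in wild type (-1.37, limma adjusted p = 0.0684), and this difference passed when any 1 wild-type library was left out. Among the 14 immunity-related GTPase and autophagy partner genes, which act with GBPs on pathogen vacuoles, 1 fell with time in wild type, where 10.7% of all tested genes passed. None passed in the other 5 comparisons, where 0.0% to 3.96% of all tested genes did. It was Gabarapl2, with 84.5 and 82.0 FPKM at 90 min, against 39.9 and 39.7 at 6 h (-1.05, limma adjusted p = 0.0228). Its adjusted p was 0.142 and 0.181 when either wild-type library at 90 min was left out. Of the 8 inflammasome genes, Il1b fell with time in wild type, from 377 and 315 to 79.6 and 115 FPKM (-1.84, limma adjusted p = 0.0175, and 0.0797 with no filter on low values), and no other passed. For genotype at 6 h, 6 of the 8 inflammasome genes were above 0, as were 66.2% of all tested genes. Casp1, which cleaves interleukin-1 beta and gasdermin D, was at 31.5 FPKM in the 6 h knockout library, while wild type had 12.7 and 20.5 (0.92, 95% interval 0.10 to 1.75, limma adjusted p = 0.14). Without the second wild-type library at 6 h this was 1.25 with a limma adjusted p of 0.0232, and without the first it was 0.60 with a limma adjusted p of 0.422. Casp4 was among the 2 below 0, at 44.9 FPKM in the 6 h knockout library against 66.4 and 87.9 FPKM in wild type (-0.75, 95% interval -1.50 to -0.0035, limma adjusted p = 0.174).

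**Figure D5:**
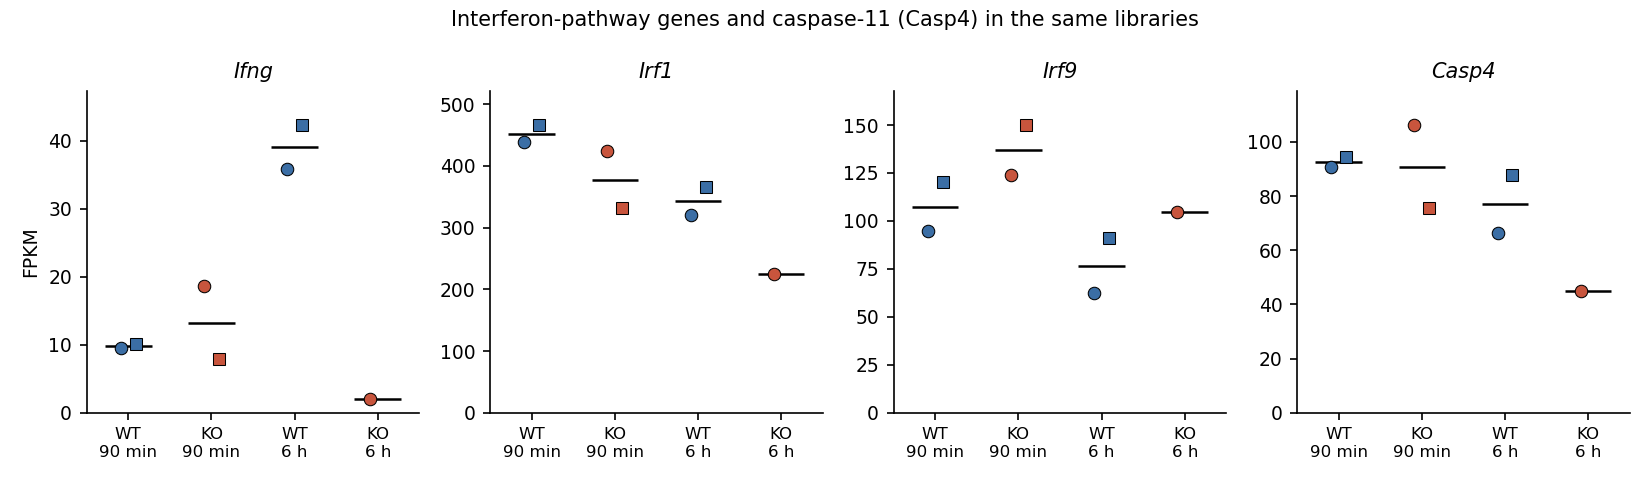
FPKM of Ifng, Irf1, Irf9 and Casp4 in each library, drawn as in the plot of the members; circles are replicate 1, squares replicate 2 and bars group means. The GdX-deficient library at 6 h has the lowest level of Ifng, 1.99 FPKM, of Irf1, 225 FPKM, and of Casp4, 44.9 FPKM.

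Cell type markers varied between the libraries that set these comparisons. The summed FPKM of 5 B cell markers was 394 and 488 in wild type at 6 h, against 1106 to 1980 in the other 5 libraries, and that of 5 T cell markers was 116 and 90.6 against 188 to 265. For 5 NK cell markers, a source of interferon gamma, the sum was 24.9 and 29.4 in wild type at 6 h and 36.0 to 68.2 elsewhere. The 5 neutrophil markers summed to 664 to 1053 in wild type, 965 and 4601 in GdX-deficient spleen at 90 min, and 2471 in the 6 h knockout library. Macrophage and monocyte markers (6 genes) ran from 524 to 982, dendritic cell markers from 16.3 to 30.6 and endothelial markers from 29.1 to 76.2 FPKM. At 90 min stromal markers summed to 87.3 and 44.7 in wild type against 19.8 and 16.8 in the knockout, and at 6 h to 22.9 and 29.7 against 41.0. The 4 listed red cell markers summed to 491 and 553 in wild type against 1136 and 922 in the knockout at 90 min, and were lowest in wild type at 6 h, at 162 and 229 against 527. Of 5 pancreas markers, 4 were below 1 FPKM in every library. The part of cell make-up in the rise of Gbp2, in the genotype values at 90 min and in the Gbp8 values was not tested.

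The genes whose profile over the 7 libraries lay nearest to the mean profile of the family were sought among 7876 candidates, the genes outside the family with a mean of at least 5 FPKM and a symbol that neither starts with Gm nor ends in Rik. Distance was the root-mean-square difference between centred log2(FPKM + 1) profiles. The 5 nearest were Tmem140 (0.107), Wnk1 (0.114), Mllt6 (0.116), Adpgk (0.126) and Zfp513 (0.126). Among the members, Gbp3 was the nearest to the family mean (0.113) and Gbp2 the farthest (0.646), while the other 6 lay between 0.135 and 0.340. The nearest pair of members was Gbp3 and Gbp7 (0.154), and the farthest was Gbp2 and Gbp8 (0.907).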

How the data were processed

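Spleen RNA from 7 samples in 4 groups was sequenced on a BGISEQ-500, per the labels' protocols. The authors deposited FPKM values with 1 column per library, per the file headers. HISAT, HISAT2 2.0.4, Bowtie2, RSEM and the build GRCm38.p5 are named, without role or order, in the submitters' processing notes. From these values, log2(FPKM + 1) was computed for the 11378 of 17920 genes with a mean of at least 1 FPKM and fitted with limma 3.58.1 in R 4.3.3 (empirical Bayes with trend, two-sided p, Benjamini-Hochberg adjustment over all tested genes, threshold 0.05). The pseudocount of 1 understates the change of low genes. A fit of the 4 groups gave both genotype and both time comparisons and the interaction, and an additive fit gave genotype with time as covariate. The 6 h knockout group holds 1 library, assumed to vary like the others. The fits were checked on simulated data. There the interaction recovered none of the changes put in. Genotype at 6 h and time in GdX-deficient spleen recovered a minority of them. That no member passed in these comparisons therefore does not show that the members did not change. Depth was estimated from the steps between low FPKM values, counting those that fell on whole fragments within rounding. FPKM is relative, so a few abundant genes shift all others. Shared windows and coding identity were computed from GENCODE M21 transcripts with Biopython 1.88 and Python 3.11.15.

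The members, the 5 pathway lists, the marker lists and the naming rule were chosen with earlier results of these data known. The rule named all members, other family symbols where listed, up to 4 genes per list with the smallest p with time as covariate or in wild-type time, and always Ifng, Irf1, Irf9 and Casp4, of which the text gives those that carry a result. A further gene of the pathway lists is not reported here. Gm44504, Hbb-b1 and the within-library shares were chosen after their values were seen. Alternatives were a pseudocount of 0.1, no filter or a mean of at least 5 FPKM, median-ratio scaling, quantile normalization, globin genes left out, only the libraries compared, a replicate block, each library left out, and, added after seeing the data, a trend on transcript length removed and a crossed block.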

Additional observations from a re-analysis of the deposited data

How the results depend on the processing

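The rise of Gbp2 with time in wild type kept its direction under all 16 alternatives, from 1.40 to 1.97 on the log2 scale, with limma adjusted p-values from 0.000263 to 0.0574. It missed the threshold with no filter on low values, where 0 members passed and more genes were tested. Counts of members passing at 6 h between genotypes ran from 0 to 1 and in wild-type time from 1 to 2 when each library was left out in turn. The replicate block gave 1 member at 6 h (Gbp8, 1.25, limma adjusted p = 0.0304). Same-numbered libraries shared deviations between the wild-type groups (correlation 0.768). They did not between genotypes at 90 min (-0.12) or between GdX-deficient at 90 min and wild type at 6 h (0.08). Pairing was therefore not assumed in the main fit. For time in wild type the replicate block called 2345 of all tested genes, against 1218 in the main fit, and Gbp2 stayed the 1 member called. With the crossed block, 367 of all tested genes and 0 members passed at 90 min, against 181 genes and 0 members in a fit of those 4 libraries without it. Over all tested genes the count called at 6 h ran from 90 with no filter to 3383 with the block.

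None of the values whose sign turned had passed the threshold, and the cause was not tested. The farthest from 0 were Gbp4 at 6 h (0.40) and the Gbp4 interaction (-0.38). With globin genes left out, Gbp3 and Gbp7 at 6 h became 0.0411 and 0.16, and Gbp2 and Gbp5 with time as covariate 0.19 and 0.22. Quantile normalization gave the last pair as 0.15 and 0.18. Median-ratio scaling, which moved the median of all tested genes at 6 h from 0.32 to 0.01, turned Gbp6 at 6 h to -0.21, Gbp3 with time as covariate to -0.0325, Gbp8 in GdX-deficient time to -0.0665 and the Gbp9 interaction to -0.19. The replicate block turned Gbp4 and Gbp9 in GdX-deficient time to 0.0309 and 0.0071, Gbp7 at 6 h to 0.0018 and Gbp5 with time as covariate to 0.0659. With the length trend removed, Gbp4 and Gbp6 at 6 h became -0.10 and -0.15, Gbp3 and Gbp7 with time as covariate -0.0113 and -0.0679, Gbp8 in GdX-deficient time -0.0568 and the Gbp9 interaction -0.20.

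With each library left out in turn, genotype values at 90 min ran from -0.0429 to 0.49 for Gbp2 and from -0.29 to 0.87 for Ifng. At 6 h they ran from -0.64 to 0.17 for Gbp3, -0.22 to 1.02 for Gbp4, -0.21 to 0.49 for Gbp6 and -0.39 to 0.16 for Gbp7. With time as covariate they ran from -0.25 to 0.22 for Gbp2 and -0.23 to 0.36 for Gbp5. Wild-type time values ran from -0.45 to 0.79 for Gbp4, -0.28 to 0.56 for Gbp5, -0.51 to 0.41 for Gbp8 and -0.57 to 0.19 for Gbp9. Those in GdX-deficient spleen ran from -0.33 to 0.0233 for Gbp3, -0.43 to 0.0109 for Gbp4 and -0.26 to 0.0258 for Gbp9. Interactions ran from -1.004 to 0.24 for Gbp4, -0.66 to 0.0428 for Gbp6, -0.19 to 0.72 for Gbp8 and -0.31 to 0.45 for Gbp9.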

Other observations

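Gbp2b, the other family gene of the chromosome 3 cluster, was listed at 0.23 and 0.26 FPKM in wild type and 0.32 and 0.45 FPKM in GdX-deficient spleen at 90 min, and at 0.48 and 0.76 FPKM in wild type and 0.46 FPKM in the 6 h knockout library. It was below the filter and was not tested. Its neighbour Gbp2, which is 82.5% identical to it in coding sequence and has the same 10-base ISRE core in its promoter window, stood at 74.9 FPKM or more in every library. The symbols Gbp1 and Gbp11 were looked for and had no entry among the genes analysed here.

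The single gene nearest in profile to each member was Eme2 for Gbp2 (distance 0.158), Phf6 for Gbp3 (0.093), Usp25 for Gbp4 (0.120), Zbtb5 for Gbp5 (0.126), Psmf1 for Gbp6 (0.089), Parp10 for Gbp7 (0.099), Eif2ak1 for Gbp8 (0.064) and Mfhas1 for Gbp9 (0.1).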
